A study of Mus musculus with 12 samples.

Results

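The regions described here are the open chromatin regions (OCR) of the mouse major histocompatibility complex, the H2 complex, in regulatory T cells (Treg). They were chosen by position alone, as the regions of the reference set on chromosome 17 between 33700000 and 37300000 (mm9), a stretch of 3.6 Mb, after leaving out those within 20 kb of Tnf, Lta and Ltb. The stretch held 363 regions, 16 of them lay in the left-out neighborhood, and 347 of the 118680 regions of the series remained.

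Accessibility was measured by ATAC-seq, in which the transposase Tn5 inserts adapters into open DNA, in sorted YFP+ Treg labelled as derived from spleen. WT Treg came from Foxp3-YFP-Cre mice and Ikzf1-cko Treg from Ikzf1-fl-Foxp3-YFP-Cre mice, so that both genotypes carried the Foxp3-driven Cre. The floxed allele of Ikzf1, which encodes the zinc finger protein Ikaros, was the difference between them. Cells of each genotype were taken ex vivo or after 4 hr on plate-bound antibodies to CD3 and CD28, giving 4 groups of 3 libraries and 12 libraries in all. Deletion was limited to cells that had expressed Foxp3, the cells were sorted by the same reporter, and neither the age of the mice behind these libraries nor any pooling of mice is given in the sources used here. The study's methods call the libraries of a group biological replicates.

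The H2 complex is one of the most gene-dense stretches of the genome. Its class I genes encode molecules that show peptides from inside the cell to CD8 T cells, its class II genes encode molecules that show peptides from endosomes to CD4 T cells, and the genes for the transporters and proteasome subunits that supply class I peptides lie between the class II genes. Class I molecules are made by nearly all cells, whereas class II molecules are a product of B cells, dendritic cells and macrophages, and mouse T cells as a rule make little or none. The class III segment and the blocks between the class I genes hold complement genes, heat shock genes, chromatin regulators and housekeeping genes.

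Sequences of class I start sites and of 3 regions away from start sites, whose values are described below, are given first (mm9 reference, 5′ to 3′). The promoters of H2-K1 (chr17:34137295-34137443, minus strand), H2-Q6 (chr17:35561582-35561730, plus strand) and H2-Q7 (chr17:35575927-35576075, plus strand) are printed from 40 bases before to 100 bases after the letters GGGGATTCC, the kappaB-type element of class I promoters, with these letters and CCAAT on either strand in capitals. The corresponding stretch of H2-D1 was identical to that of H2-K1 at 135 of 149 aligned positions (90.6%), and those of H2-Q6 and H2-Q7 were identical at 145 of 150 positions (96.7%).
H2-K1: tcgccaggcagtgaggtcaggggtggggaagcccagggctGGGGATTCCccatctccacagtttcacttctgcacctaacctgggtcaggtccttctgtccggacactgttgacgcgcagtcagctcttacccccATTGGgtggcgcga
H2-Q6: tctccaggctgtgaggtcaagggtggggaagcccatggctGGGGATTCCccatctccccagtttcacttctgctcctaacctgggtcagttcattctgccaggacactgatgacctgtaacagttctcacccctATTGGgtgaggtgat
H2-Q7: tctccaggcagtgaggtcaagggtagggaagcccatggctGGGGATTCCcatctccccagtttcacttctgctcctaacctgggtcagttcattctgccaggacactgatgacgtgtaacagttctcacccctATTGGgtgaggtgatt
The letters GGGGATTCC stood on either strand between 250 bases before and 50 bases after a start site of 6 of the 186 protein-coding genes of the stretch (3.23%), namely H2-K1, H2-D1, H2-Q6, H2-Q7, Cfb and Msh5, and of 94 of 22232 protein-coding genes of the genome (0.423%). In the 4 class I promoters the element shared its last bases with a match to GGGAA on the other strand.

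The promoter of H2-Ob (chr17:34375719-34375847, plus strand), a class II gene whose region differed between the genotypes, is printed up to its first annotated start site because it held the letters CCTAGCAAC, the core of the X box of class II promoters. Those letters stood near a start site of 2 of the 186 genes of the stretch (1.08%), H2-Ob and Fkbpl, and of 231 of the 22232 genes (1.04%), and the capitals mark them and the inverted CCAAT of the Y box behind them.
H2-Ob: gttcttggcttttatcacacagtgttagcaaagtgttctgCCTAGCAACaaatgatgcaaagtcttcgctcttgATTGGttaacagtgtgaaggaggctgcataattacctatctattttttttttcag
Of the regions away from start sites that differed between the genotypes, 3 are shown, OCR_50404 for its level, OCR_50162 for its difference in both states and OCR_50267 for its difference ex vivo. They are given by the 300 bases at their centre on the plus strand, with GGGAA, the core recognized by Ikaros, and GAAANNGAA, the interferon response element, in capitals on either strand. The windows are chr17:36368232-36368531 for OCR_50404, chr17:34355616-34355915 for OCR_50162 and chr17:35368091-35368390 for OCR_50267, and the last held neither motif.
OCR_50404: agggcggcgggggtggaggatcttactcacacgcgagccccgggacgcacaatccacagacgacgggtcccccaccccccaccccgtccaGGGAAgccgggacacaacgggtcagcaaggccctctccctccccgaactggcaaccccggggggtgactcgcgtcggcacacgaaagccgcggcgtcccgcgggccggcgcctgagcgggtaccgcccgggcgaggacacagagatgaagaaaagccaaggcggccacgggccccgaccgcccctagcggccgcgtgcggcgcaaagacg
OCR_50162: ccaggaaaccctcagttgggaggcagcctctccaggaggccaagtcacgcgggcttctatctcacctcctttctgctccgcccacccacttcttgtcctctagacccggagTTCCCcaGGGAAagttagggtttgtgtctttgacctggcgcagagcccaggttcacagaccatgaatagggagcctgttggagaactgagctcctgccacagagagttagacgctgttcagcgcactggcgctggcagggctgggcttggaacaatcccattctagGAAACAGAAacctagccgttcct
OCR_50267: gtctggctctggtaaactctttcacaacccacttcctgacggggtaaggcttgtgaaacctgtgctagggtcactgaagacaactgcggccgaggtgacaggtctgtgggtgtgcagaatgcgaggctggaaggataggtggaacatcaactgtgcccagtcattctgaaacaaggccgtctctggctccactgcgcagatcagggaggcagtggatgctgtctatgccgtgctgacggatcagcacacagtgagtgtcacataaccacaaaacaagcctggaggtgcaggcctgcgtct
In windows of this length, GGGAA stood in 212 of the 347 regions of the complex (61.1%) and in 59% of all 118480 regions on chromosomes. GAAANNGAA, which can overlap GGGAA, stood in 10.7% and 8.66%, the palindromic AP-1 letters TGANTCA in 12.1% and 14.3%, CCAAT in 30.5% and 30.5%, GGGGATTCC in 1.15% and 0.317%, and CCTAGCAAC in 0.576% and 0.404%. Most of these shares were close to those of the whole set, and a match is a description of letters, not of binding.

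The libraries held between 4808916 and 15355521 counted reads on the 118680 regions, and every Ikzf1-cko library was larger than every WT library. Over the tested regions of the complex, the replicates of a group had Spearman correlations between 0.903 and 0.971. Of the 31 regions over Ikzf1, 28 were tested. In Ikzf1-cko Treg ex vivo 6 were lower and 1 was higher, against 12.7% and 8.78% of all tested regions. After stimulation 7 were higher and none lower, against 20.4% and 30.7% of all. Which part of the gene is deleted is not given in the sources used here. All 9 Treg and T cell markers (Foxp3, Il2ra, Ctla4, Ikzf2, Cd4, Cd3e, Cd3d, Cd3g and Cd5) had a region at the start site, while Ms4a1, Cd79a, Pax5, Blk and Fcrla of 7 B cell markers had none. In bulk libraries, fewer cells of a type and less accessible DNA per cell cannot be told apart.

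The regions of the complex were more open than most. Accessibility is given in FPKM, reads scaled to the length of the region and to the depth of the library, so that levels can be compared between regions. Their median level was 11 FPKM, against 7.61 over all regions on chromosomes, and their means over the 4 groups ranged from 4.17 to 113.0 FPKM. A start site lay under 107 of them (30.8%, against 11.2% of all), and their median GC content was 54.4% (50.0% of all). Of the 347 regions, 22 had a copy elsewhere in the genome with at least 95% identity over at least 50% of their length, 14 of these in the H2-D and H2-Q segment. Each start-site region named below overlapped an exon of its gene.

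Differences were tested on the counts with edgeR's quasi-likelihood test over 69957 regions with at least 3.6 CPM (reads scaled to the library total) in at least 3 libraries, with Benjamini-Hochberg adjustment. Of the 347 regions, 256 passed this filter, none of them through the libraries of 1 group alone, and the other 91 had mean levels between 1.10 and 21.2 FPKM in the 4 groups. A region could still pass through libraries of 1 genotype or 1 state, and 166 regions reached 3.6 CPM in all 12 libraries. A region passed the test when its adjusted p (FDR) was under 0.05, and it is called a region of large change when its log2 fold change was in addition above 1 or below -1. Differences are given as log2 fold changes, Ikzf1-cko over WT or stimulated over ex vivo, with the standard error after ± and 3 libraries in each group. Where a difference did not pass in a fit that left out 1 library or used another setting, that fit is named with its log2 fold change and adjusted p. A region that did not pass the filter of an alternative fit was not tested in that fit.

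On stimulation more regions of the complex rose than fell in both genotypes, chiefly by modest steps, whereas few of its regions differed between the genotypes. In WT Treg, 90 of the 256 tested regions (35.2%) rose with stimulation and 13 (5.08%) fell, against 26.9% and 20.7% of all tested regions. In Ikzf1-cko Treg, 85 (33.2%) rose and 14 (5.47%) fell, against 12% and 11.5% of all. Of the regions that rose, 64 did so in both genotypes, 71.1% of those that rose in WT and 75.3% of those that rose in Ikzf1-cko Treg, and over all tested regions these shares were 26.5% and 59.5%. The median log2 fold change on stimulation was 0.28 in WT and 0.23 in Ikzf1-cko Treg, and over all tested regions it was 0.04 and 0.06. Large rises were fewer. In WT Treg they numbered 10 (3.91% of the 256, against 17.7% of all), with 0 large falls (2.32% of all), and in Ikzf1-cko Treg 8 (3.12%, against 3.02% of all) with 1 large fall (0.391%, against 0.632% of all). By unadjusted p under 0.05 no region of the complex had a large fall in WT Treg either, and DESeq2 and limma on log2(FPKM + 1) found none. Thinned counts, loess normalization and the fit without stimulated WT replicate 2 each found 1. With the filter in all 12 libraries, 2 of 166 regions had a large rise in WT and 3 in Ikzf1-cko Treg. Of the regions with large rises described below, OCR_50132, OCR_50170, OCR_50225, OCR_50337 and OCR_50349 reached 3.6 CPM only in stimulated libraries.

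**Figure D1:**
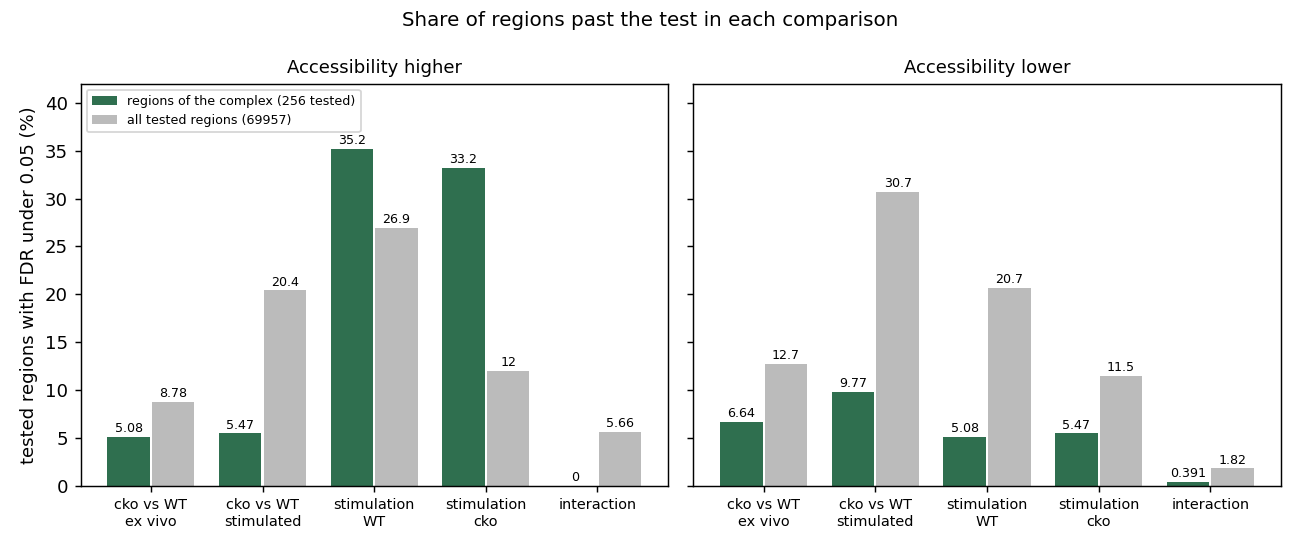
Share of tested regions with FDR under 0.05 (y axis, %) in each comparison (x axis), for the 256 tested regions of the complex (green) and all 69957 tested regions (gray), with higher accessibility on the left and lower on the right. On stimulation the green bars for higher accessibility reach 35.2% and 33.2%, above the gray bars, and in the other comparisons they stand below the gray ones.

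Between the genotypes ex vivo, 13 regions of the complex (5.08%) were higher and 17 (6.64%) lower in Ikzf1-cko Treg, against 8.78% and 12.7% of all tested regions. Large differences numbered 2 higher (0.781%, against 0.588% of all) and 5 lower (1.95%, against 4.04% of all), and without WT ex vivo replicate 2 they numbered 4 in all. With the filter in all 12 libraries they were 2 higher and 0 lower. After stimulation, 14 regions (5.47%) were higher and 25 (9.77%) lower in Ikzf1-cko Treg, against 20.4% and 30.7% of all. None of the 256 had a large difference after stimulation, whereas 1.16% of all tested regions were higher and 20.2% lower by that much. No region had one at an unadjusted p under 0.05 either, where 18 regions were higher and 36 lower in all, and DESeq2 and limma found 0 too, while thinned counts found 1, loess normalization 2 and the fit with no filter on low counts 6. One replicate decided whether a large difference appeared in stimulated Treg: the count was 3 without stimulated WT replicate 3 or stimulated Ikzf1-cko replicate 1, and 1 without stimulated WT replicate 2 or stimulated Ikzf1-cko replicate 2 or 3. The balance of higher and lower regions depended on the scaling. With TMM scaling 26 regions were higher and 16 lower ex vivo, and 20 were higher and 13 lower after stimulation. DESeq2 found 13 higher and 9 lower ex vivo and 20 higher and 6 lower after stimulation, and loess normalization against abundance found 17 higher and 12 lower ex vivo and 8 higher and 44 lower after stimulation. The median log2 difference over all tested regions moved from -0.13 to -0.02 ex vivo with TMM scaling, and from -0.11 to 0.01 after stimulation with loess normalization, and the median of the complex itself was -0.02 ex vivo and -0.06 after stimulation.

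Regions over start sites rose more often on stimulation than the other regions of the complex. Of the 100 tested regions over a start site, 54 rose in WT and 56 in Ikzf1-cko Treg, 54.0% and 56.0%, against 23.9% and 22% of all 12626 tested start-site regions. Away from start sites, 36 of 156 rose in WT (23.1%, against 27.6% of all 57331) and 29 in Ikzf1-cko Treg (18.6%, against 9.78% of all). Falls over start sites were rarer, with 3 in WT (3%, against 26.2% of all start-site regions) and 2 in Ikzf1-cko Treg (2%, against 9.07%). Between the genotypes, 7 start-site regions (7%, against 17% of all) were higher and 1 (1%, against 5.42%) lower in Ikzf1-cko Treg ex vivo. After stimulation 11 (11%, against 43.9%) were higher and 6 (6%, against 13.9%) lower. The counts of gene lists below are of start-site regions and stand beside these shares. The lists were chosen with earlier results of these data known, so their counts are a description and not a test. Of the 17 regions lower in Ikzf1-cko Treg ex vivo, 16 (94.1%) lay away from start sites, close to the 92.3% of all lower regions, as did 19 (76%) of the 25 that were lower after stimulation, against 91.8% of all. No region over a start site had a large genotype difference in either state. Of all start-site regions, 0.246% had one higher and 0.729% lower ex vivo, and 0.277% and 5.02% after stimulation. Along the complex, 28 of 51 tested regions of the class III segment rose in WT Treg, against 1 of 20 in the H2-T segment and 3 of 29 in the H2-M segment. The other segments lay between, with 15 of 39, 15 of 48, 9 of 18 and 19 of 51, and 26.9% of all tested regions rose. Start sites lay under 33 of all 70 class III regions, 6 of 29 in H2-T and 8 of 38 in H2-M. Position apart from start sites was not tested.

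**Figure D2:**
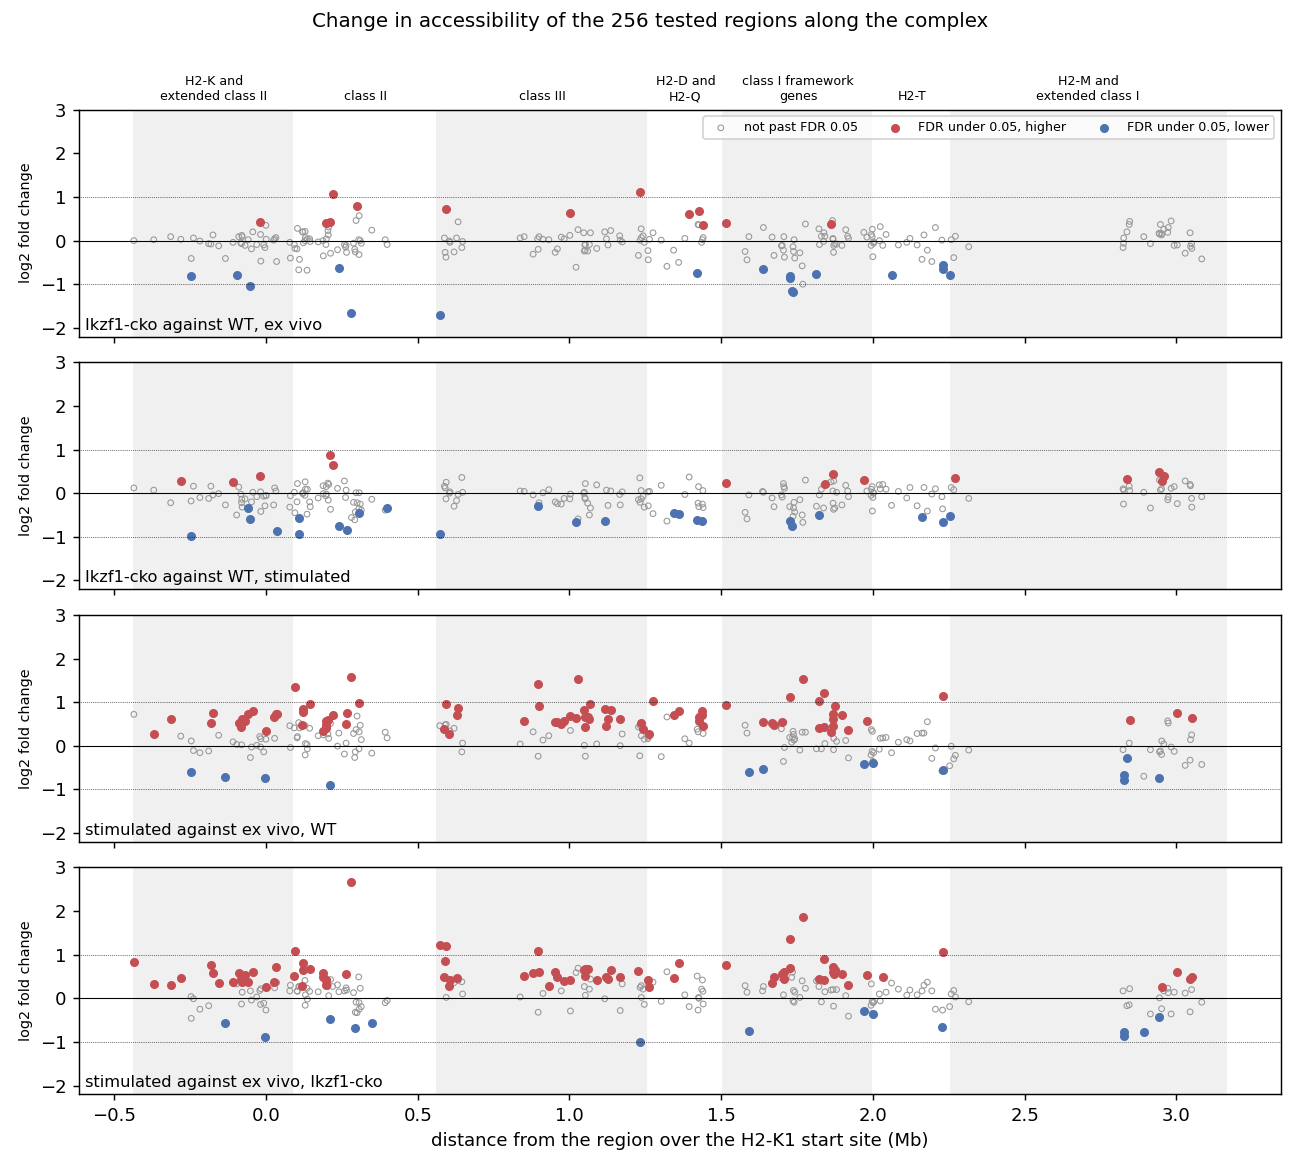
Log2 fold change (y axis) of the 256 tested regions against their distance from the region over the H2-K1 start site (x axis, Mb), in 4 comparisons from top to bottom, with filled points where FDR was under 0.05 (red higher, blue lower) and shaded bands for the segments named above. In WT Treg 28 of the 51 points of the class III segment are filled red on stimulation, against 1 of 20 in the H2-T segment, while 26.9% of all tested regions rose. The panel of the stimulated genotype difference holds no filled point beyond 1 log2 unit.

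The start sites of the classical class I genes H2-K1 and H2-D1, which encode the peptide-presenting molecules of the cell surface, were open in every library, rose modestly with stimulation and showed no genotype difference past the test. The region over the H2-K1 start site (OCR_50121, chr17:34136408-34137783) had 29.4, 32.4 and 28.6 FPKM in WT and 28.4, 31.5 and 32.4 in Ikzf1-cko Treg ex vivo. Stimulated WT had 35.8, 39.97 and 38.1 and stimulated Ikzf1-cko Treg 39.6, 32.5 and 37.5 FPKM. Stimulated libraries stood above ex vivo libraries in each genotype. The rise was 0.33 ± 0.09 (adjusted p = 0.0043) in WT and 0.25 ± 0.08 (adjusted p = 0.026) in Ikzf1-cko Treg. Between the genotypes it differed by 0.03 ± 0.09 (adjusted p = 0.82) ex vivo and -0.05 ± 0.09 (adjusted p = 0.63) after stimulation. The region over the H2-D1 start site (OCR_50278, chr17:35399515-35400963) had 27.8, 28.3 and 31.6 FPKM in WT and 27.9, 31.2 and 30.7 in Ikzf1-cko Treg ex vivo. Stimulated WT had 33.2, 39.3 and 32.9 and stimulated Ikzf1-cko Treg 38.3, 34.4 and 35.9 FPKM. It too was higher in every stimulated library than ex vivo in the same genotype, by 0.26 ± 0.09 (adjusted p = 0.02) in WT and 0.27 ± 0.08 (adjusted p = 0.012) in Ikzf1-cko Treg. Its genotype difference was 0.03 ± 0.09 (adjusted p = 0.84) ex vivo and 0.04 ± 0.09 (adjusted p = 0.72) after stimulation. The rise of H2-K1 in WT passed in every alternative fit. In Ikzf1-cko Treg it did not pass without Ikzf1-cko ex vivo replicate 1 or 2 or stimulated Ikzf1-cko replicate 1 or 3, nor with DESeq2, TMM scaling, thinned counts or limma (0.19 to 0.27, adjusted p = 0.053 to 0.16). At H2-D1 the rise in WT did not pass without WT ex vivo replicate 1 or 2 or stimulated WT replicate 2, nor with DESeq2, TMM scaling or thinned counts (0.17 to 0.24, adjusted p = 0.057 to 0.16), and that in Ikzf1-cko Treg did not without Ikzf1-cko ex vivo replicate 1 or stimulated Ikzf1-cko replicate 1, nor with DESeq2, TMM scaling, thinned counts or limma (0.21 to 0.27, adjusted p = 0.069 to 0.13).

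The Q genes, class I genes of lower polymorphism next to H2-D1, differed between the genotypes at 3 start sites. Of the 6 listed Q genes in the stretch, 5 had a region at the start site and 4 of these were tested. On stimulation 3 of the 4 rose in WT and 1 in Ikzf1-cko Treg, and in Ikzf1-cko Treg 2 were higher ex vivo and 1 was lower after stimulation. With 4 regions these counts are few to set against the 23.9% and 22% of all start-site regions that rose, the 17% that were higher ex vivo and the 13.9% that were lower after stimulation. The region over H2-Q6 (OCR_50301, chr17:35561510-35562367) had 13.7, 13.9 and 12.6 FPKM in WT and 19.4, 22.5 and 22.8 in Ikzf1-cko Treg ex vivo. Stimulated WT had 19.1, 20.9 and 18.9 and stimulated Ikzf1-cko Treg 22.1, 20.6 and 22.5 FPKM. The WT ex vivo libraries stood below those of the other 3 groups. It was higher in Ikzf1-cko Treg ex vivo by 0.69 ± 0.12 (adjusted p = 9.5e-05), and it rose in WT Treg by 0.56 ± 0.14 (adjusted p = 0.0013). In Ikzf1-cko Treg the change on stimulation was 0.02 ± 0.10 (adjusted p = 0.93). The interaction, the stimulation effect in Ikzf1-cko minus that in WT, was -0.54 ± 0.17 (adjusted p = 0.046). It was the only one in the complex past the test (0.391% of the 256 regions lower, against 1.82% of all, and 0 higher, against 5.66% of all). It did not pass without WT ex vivo replicate 1, 2 or 3, stimulated WT replicate 1, 2 or 3, Ikzf1-cko ex vivo replicate 2 or 3 or stimulated Ikzf1-cko replicate 2 or 3, nor with DESeq2, thinned counts, limma, no filter on low counts or the replicate block (-0.57 to -0.49, adjusted p = 0.055 to 0.18).

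The region over H2-Q7 (OCR_50306, chr17:35575735-35576689) had 20.5, 18.9 and 19.2 FPKM in WT and 22.4, 25.9 and 26.1 in Ikzf1-cko Treg ex vivo. Stimulated WT had 23.9, 30.4 and 25.5 and stimulated Ikzf1-cko Treg 30.5, 26.4 and 26.3 FPKM. As at H2-Q6, the WT ex vivo libraries were below all others. It was higher in Ikzf1-cko Treg ex vivo by 0.35 ± 0.11 (adjusted p = 0.024) and rose in WT by 0.45 ± 0.12 (adjusted p = 0.0032). The genotype difference did not pass without WT ex vivo replicate 2 or 3 or Ikzf1-cko ex vivo replicate 2, nor with limma or loess normalization (0.27 to 0.34, adjusted p = 0.053 to 0.1). OCR_50301 and OCR_50306 each had 2 close copies elsewhere in the genome, so reads could be shared between Q genes and the values of both are uncertain to that extent. The region over H2-Q2 (OCR_50284, chr17:35478946-35480447) had 6.15, 7.06 and 6.20 FPKM in WT and 5.59, 5.47 and 5.69 in Ikzf1-cko Treg ex vivo. Stimulated WT had 11.4, 11.1 and 9.14 and stimulated Ikzf1-cko Treg 9.17, 7.32 and 6.85 FPKM. Stimulated libraries were above ex vivo ones in each genotype. The rise was 0.71 ± 0.15 (adjusted p = 0.0004) in WT and 0.47 ± 0.13 (adjusted p = 0.011) in Ikzf1-cko Treg, and the genotype difference after stimulation was -0.46 ± 0.14 (adjusted p = 0.0075). That difference did not pass without stimulated WT replicate 1 or stimulated Ikzf1-cko replicate 3, nor with DESeq2 or limma (-0.44 to -0.35, adjusted p = 0.051 to 0.097), and the rise in Ikzf1-cko Treg did not without stimulated Ikzf1-cko replicate 1, nor with DESeq2, thinned counts or limma (0.34 to 0.46, adjusted p = 0.066 to 0.13). The region over H2-Q4 (OCR_50289) stayed between 22.6 and 31.4 FPKM in the 12 libraries and passed no test.

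A region over H2-K2, a class I gene model next to H2-K1 (OCR_50115, chr17:34115304-34116273), also held GGGGATTCC and was picked after its values were seen. It had 24.2, 24.995 and 24.6 FPKM in WT and 30.0, 32.1 and 37.4 in Ikzf1-cko Treg ex vivo. Stimulated WT had 23.7, 34.1 and 28.1 and stimulated Ikzf1-cko Treg 35.3, 37.9 and 39.1 FPKM. All Ikzf1-cko libraries were above the WT libraries of the same state. The difference was 0.42 ± 0.11 (adjusted p = 0.005) ex vivo, in every alternative fit, and 0.39 ± 0.11 (adjusted p = 0.0036) after stimulation, which did not pass without stimulated WT replicate 1, nor with loess normalization (0.08 to 0.26, adjusted p = 0.069 to 0.58). Over the whole complex edgeR found no large interaction, against 0.579% of all regions higher and 1.4% lower by more than 1 log2 unit. At an unadjusted p under 0.05, 0 regions were higher and 1 lower by that much, DESeq2 and limma found 0, loess normalization found 2, and the fits without WT ex vivo replicate 1 or stimulated Ikzf1-cko replicate 1 each found 1.

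Further along, the T and M class I genes, which encode nonclassical molecules, were mostly without an open start site. Of 7 listed T genes 3 had a region, and of 10 M genes and 4 olfactory receptor genes in the stretch none had one. The regions over H2-T22, which also covers the gene model Gm6034 (OCR_50386), and over H2-T24 (OCR_50381) passed no test. The region over H2-T23 (OCR_50384, chr17:36168358-36169888), the gene of the nonclassical molecule Qa-1, had 7.04, 8.9997 and 9.35 FPKM in WT and 8.38, 6.65 and 8.93 in Ikzf1-cko Treg ex vivo. Stimulated WT had 8.64, 12.5 and 7.88 and stimulated Ikzf1-cko Treg 10.8, 10.104 and 12.4 FPKM. The WT groups overlapped and the Ikzf1-cko groups did not. The rise was 0.48 ± 0.14 (adjusted p = 0.0099) in Ikzf1-cko Treg and the change in WT was 0.18 ± 0.17 (adjusted p = 0.41). The rise did not pass without Ikzf1-cko ex vivo replicate 2 or stimulated Ikzf1-cko replicate 3, nor with DESeq2, thinned counts or limma (0.37 to 0.48, adjusted p = 0.058 to 0.12).

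The genes that supply peptides to class I molecules lie in the class II segment, apart from Tapbp near H2-K1, and all 5 listed ones had a region at their start sites. These were 4 regions, of which 3 rose on stimulation in WT and 3 in Ikzf1-cko Treg, while 1 differed between the genotypes, ex vivo. Of the start-site regions of the complex, 54% and 56% rose, and 7% were higher and 1% lower in Ikzf1-cko Treg ex vivo. The region between Psmb9, an immunoproteasome subunit, and Tap1, a chain of the peptide transporter (OCR_50151, chr17:34323799-34325019), had 25.7, 31.5 and 31.9 FPKM in WT and 29.3, 29.4 and 31.1 in Ikzf1-cko Treg ex vivo. Stimulated WT had 35.6, 41.0 and 36.4 and stimulated Ikzf1-cko Treg 42.5, 40.6 and 44.1 FPKM. Stimulated libraries stood above ex vivo libraries in both genotypes, with rises of 0.33 ± 0.09 (adjusted p = 0.0049) in WT and 0.50 ± 0.08 (adjusted p = 2.6e-05) in Ikzf1-cko Treg. The region over Psmb8, another immunoproteasome subunit (OCR_50154, chr17:34334263-34334856), had 16.2, 16.1 and 16.3 FPKM in WT and 22.7, 21.3 and 20.002 in Ikzf1-cko Treg ex vivo. Stimulated WT had 27.3, 23.4 and 20.7 and stimulated Ikzf1-cko Treg 25.9, 28.3 and 25.4 FPKM. Ex vivo every Ikzf1-cko library was above every WT library, a difference of 0.40 ± 0.13 (adjusted p = 0.028). Stimulation raised it by 0.57 ± 0.15 (adjusted p = 0.0023) in WT and 0.31 ± 0.11 (adjusted p = 0.048) in Ikzf1-cko Treg. The genotype difference did not pass without WT ex vivo replicate 1, 2 or 3 or Ikzf1-cko ex vivo replicate 1 or 2, nor with thinned counts (0.35 to 0.45, adjusted p = 0.065 to 0.11), and the rise in Ikzf1-cko Treg did not without WT ex vivo replicate 1, 2 or 3, Ikzf1-cko ex vivo replicate 1, 2 or 3 or stimulated Ikzf1-cko replicate 1, 2 or 3, nor with DESeq2, TMM scaling, the compared groups alone, thinned counts, limma or no filter on low counts (0.25 to 0.36, adjusted p = 0.053 to 0.29). The region over the start sites of Tapbp, which encodes tapasin, and Zbtb22 (OCR_50105, chr17:34052643-34053444) rose by 0.42 ± 0.12 (adjusted p = 0.0042) in WT and 0.45 ± 0.10 (adjusted p = 0.0014) in Ikzf1-cko Treg. The first of these did not pass without stimulated WT replicate 2 (0.26, adjusted p = 0.083). The region over Tap2, the other transporter chain (OCR_50156), ranged from 13.5 to 26.9 FPKM over the libraries and passed no test.

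**Figure D3:**
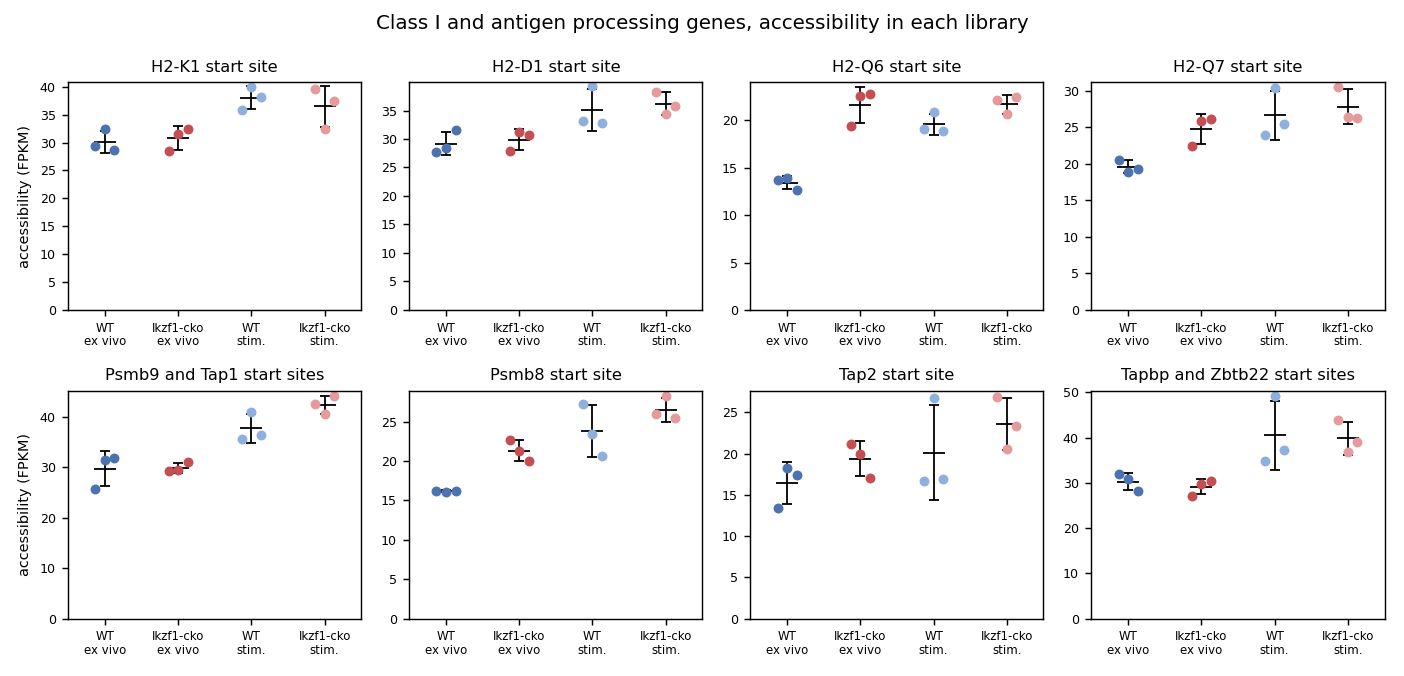
Accessibility in FPKM (y axis, from 0) of the regions over the start sites of class I and antigen processing genes in the 3 libraries of each group (points), with the group mean and SD (black). H2-K1, H2-D1 and the Psmb9 and Tap1 region step up with stimulation in both genotypes, whereas at H2-Q6 the WT ex vivo libraries, between 12.6 and 13.9 FPKM, stand below all others.

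Larger genotype differences lay around Tap2, away from its start site. OCR_50162 (chr17:34355139-34356391), between genes and 1.87 kb beyond the end of Tap2, had 7.98, 8.35 and 7.06 FPKM in WT and 13.3, 15.9 and 19.7 in Ikzf1-cko Treg ex vivo. Stimulated WT had 11.5, 12.8 and 13.6 and stimulated Ikzf1-cko Treg 18.8, 21.0 and 19.0 FPKM. The genotypes did not overlap in either state, with Ikzf1-cko Treg higher. The difference was 1.06 ± 0.14 (adjusted p = 2e-06) ex vivo and 0.64 ± 0.14 (adjusted p = 0.00027) after stimulation, and the rise with stimulation in WT was 0.70 ± 0.16 (adjusted p = 0.00088). These 3 differences passed the test in every alternative fit. OCR_50159 (chr17:34347337-34348112), in an intron of Tap2, had 15.9, 15.5 and 17.8 FPKM in WT and 22.9, 22.9 and 20.5 in Ikzf1-cko Treg ex vivo. Stimulated WT had 8.10, 9.65 and 8.58 and stimulated Ikzf1-cko Treg 19.1, 15.5 and 13.7 FPKM. Here too Ikzf1-cko Treg was higher in both states without overlap, but stimulated libraries were below ex vivo ones. The change on stimulation was -0.91 ± 0.17 (adjusted p = 9.7e-05) in WT and -0.47 ± 0.12 (adjusted p = 0.0051) in Ikzf1-cko Treg, and the genotype difference was 0.42 ± 0.13 (adjusted p = 0.018) ex vivo and 0.87 ± 0.17 (adjusted p = 8.9e-05) after stimulation. The ex vivo difference did not pass without WT ex vivo replicate 1 or 2 or Ikzf1-cko ex vivo replicate 1 or 2 (0.38 to 0.40, adjusted p = 0.061 to 0.095), and the fall in Ikzf1-cko Treg did not without stimulated Ikzf1-cko replicate 3 (-0.36, adjusted p = 0.06).

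Class II genes also had open start sites. Of the 10 listed class II genes in the stretch, 8 had a region at the start site and 7 of these were tested. In Ikzf1-cko Treg 1 was lower ex vivo and 1 after stimulation, and on stimulation 1 rose in WT and 2 in Ikzf1-cko Treg. Of the start-site regions of the complex, 1% and 6% were lower in these 2 states, and 54% and 56% rose. The region over H2-Ab1, the beta chain of the classical molecule I-A (OCR_50168, chr17:34399958-34400691), had 13.4, 12.1 and 14.4 FPKM in WT and 11.7, 13.6 and 11.8 in Ikzf1-cko Treg ex vivo. Stimulated WT had 13.1, 14.9 and 13.6 and stimulated Ikzf1-cko Treg 14.8, 13.6 and 15.3 FPKM. The region over H2-Aa, the alpha chain (OCR_50171, chr17:34424517-34425036), had group means of 17.6 and 16.8 FPKM in WT and Ikzf1-cko Treg ex vivo and 21.3 and 18.5 after stimulation. That over H2-Eb1 (OCR_50178, chr17:34442611-34443010) had 17.9, 14.5, 17.1 and 13.4 FPKM in the same order. None of the 3 passed a test. The genotype difference after stimulation was -0.21 (adjusted p = 0.26) at H2-Aa and -0.35 (adjusted p = 0.13) at H2-Eb1. H2-DMa, a chain of the peptide exchange factor DM, was the most open of the class II genes, with levels between 39.3 and 48.6 FPKM in the 12 libraries (OCR_50144, 64 bases from the start site) and no test passed.

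Markers of cells that make class II molecules were largely without a region. Regions stood at the start sites of 2 of 7 B cell markers (Cd79b and Ebf1), with summed levels of 17.1 to 20 FPKM in WT and 12.2 to 16.8 in Ikzf1-cko Treg ex vivo, and 21.4 to 26.5 and 17.9 to 20.4 after stimulation. They stood at 2 of the 9 assessed myeloid and dendritic cell markers (Cd68 and Zbtb46), with sums between 26.4 and 36.5 FPKM, and none stood at Csf1r, Itgam, Itgax or Lyz2. Between the genotypes, Ebf1 passed as lower in Ikzf1-cko Treg ex vivo (means of 14.1 FPKM in WT and 9.74 in Ikzf1-cko Treg). Zbtb46 passed as higher in both states (8.56 and 11.2 FPKM ex vivo, 13.9 and 16.9 after stimulation). Cd79b and Cd68 passed in neither state. The region of Ciita, the class II transactivator, had group means of 4.15, 5.11, 7.41 and 4.99 FPKM, WT and Ikzf1-cko ex vivo first. On stimulation it passed as higher in WT and not in Ikzf1-cko Treg. Of the 2 B cell regions 1 rose in WT and none in Ikzf1-cko Treg. Of the 2 myeloid and dendritic cell regions 1 rose in each genotype. Over all start-site regions 23.9% rose in WT and 22% in Ikzf1-cko Treg. The part of other cells in the class II levels was not tested.

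H2-Ob, which encodes a chain of the DM inhibitor DO, was the class II gene with a genotype difference at its start site. Its start-site region (OCR_50164, chr17:34375658-34377201) had 9.22, 8.75 and 9.64 FPKM in WT and 5.44, 5.65 and 6.92 in Ikzf1-cko Treg ex vivo. Stimulated WT had 10.496, 12.2 and 11.04 and stimulated Ikzf1-cko Treg 6.32, 6.66 and 6.83 FPKM. The Ikzf1-cko libraries were all below the WT libraries. The genotype difference was -0.63 ± 0.13 (adjusted p = 0.00084) ex vivo and -0.76 ± 0.14 (adjusted p = 3.9e-05) after stimulation, and both passed in every alternative fit. Stimulation changed it by 0.29 ± 0.14 (adjusted p = 0.083) in WT and 0.15 ± 0.13 (adjusted p = 0.42) in Ikzf1-cko Treg. At the partner chain H2-Oa (OCR_50131, chr17:34229166-34229941) the genotype differences were -0.09 ± 0.19 (adjusted p = 0.75) and 0.02 ± 0.19 (adjusted p = 0.94), with a rise in Ikzf1-cko Treg of 0.52 ± 0.17 (adjusted p = 0.023). That rise did not pass without Ikzf1-cko ex vivo replicate 1 or stimulated Ikzf1-cko replicate 1 or 3, nor with DESeq2, thinned counts or limma (0.40 to 0.65, adjusted p = 0.057 to 0.14). A second region in H2-Oa (OCR_50132, chr17:34231242-34231888), 1.96 kb from the start site, had 2.97, 4.30 and 2.697 FPKM in WT and 3.42, 2.47 and 2.91 in Ikzf1-cko Treg ex vivo. Stimulated WT had 9.97, 6.21 and 9.32 and stimulated Ikzf1-cko Treg 6.20, 6.29 and 6.20 FPKM. Stimulated libraries were above all ex vivo libraries. The rise was 1.35 ± 0.29 (adjusted p = 0.00045) in WT and 1.08 ± 0.26 (adjusted p = 0.0026) in Ikzf1-cko Treg, the second not passing with thinned counts (0.94, adjusted p = 0.074). The region over H2-DMb2 (OCR_50146, chr17:34281727-34282396) rose by 0.95 ± 0.28 (adjusted p = 0.0053) in WT and 0.67 ± 0.23 (adjusted p = 0.036) in Ikzf1-cko Treg. The first did not pass without WT ex vivo replicate 3 (0.74, adjusted p = 0.054), and the second did not without Ikzf1-cko ex vivo replicate 1 or 2 or stimulated Ikzf1-cko replicate 1 or 3, nor with DESeq2, thinned counts or limma (0.42 to 0.69, adjusted p = 0.082 to 0.24).

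The log2 fold change on stimulation furthest from 0 was in an intron of H2-Aa. This region reached 3.6 CPM only in stimulated libraries, so it entered the test through the groups where it was high. OCR_50170 (chr17:34417643-34418087), 6.63 kb from the start site, had 2.16, 4.76 and 2.61 FPKM in WT and 0.732, 0.653 and 1.73 in Ikzf1-cko Treg ex vivo. Stimulated WT had 10.8, 11.5 and 6.54 and stimulated Ikzf1-cko Treg 8.53, 5.49 and 5.68 FPKM. In both genotypes the stimulated libraries stood above the ex vivo ones, and the Ikzf1-cko ex vivo libraries were below all others. The rise was 1.57 ± 0.43 (adjusted p = 0.0034) in WT and 2.67 ± 0.45 (adjusted p = 5.9e-05) in Ikzf1-cko Treg, and the ex vivo genotype difference was -1.66 ± 0.52 (adjusted p = 0.02). The difference did not pass without WT ex vivo replicate 2 or Ikzf1-cko ex vivo replicate 1 or 2, nor with the compared groups alone, thinned counts or loess normalization (-1.65 to -0.99, adjusted p = 0.073 to 0.2), and the rise in WT did not with loess normalization (0.07, adjusted p = 0.9).

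**Figure D4:**
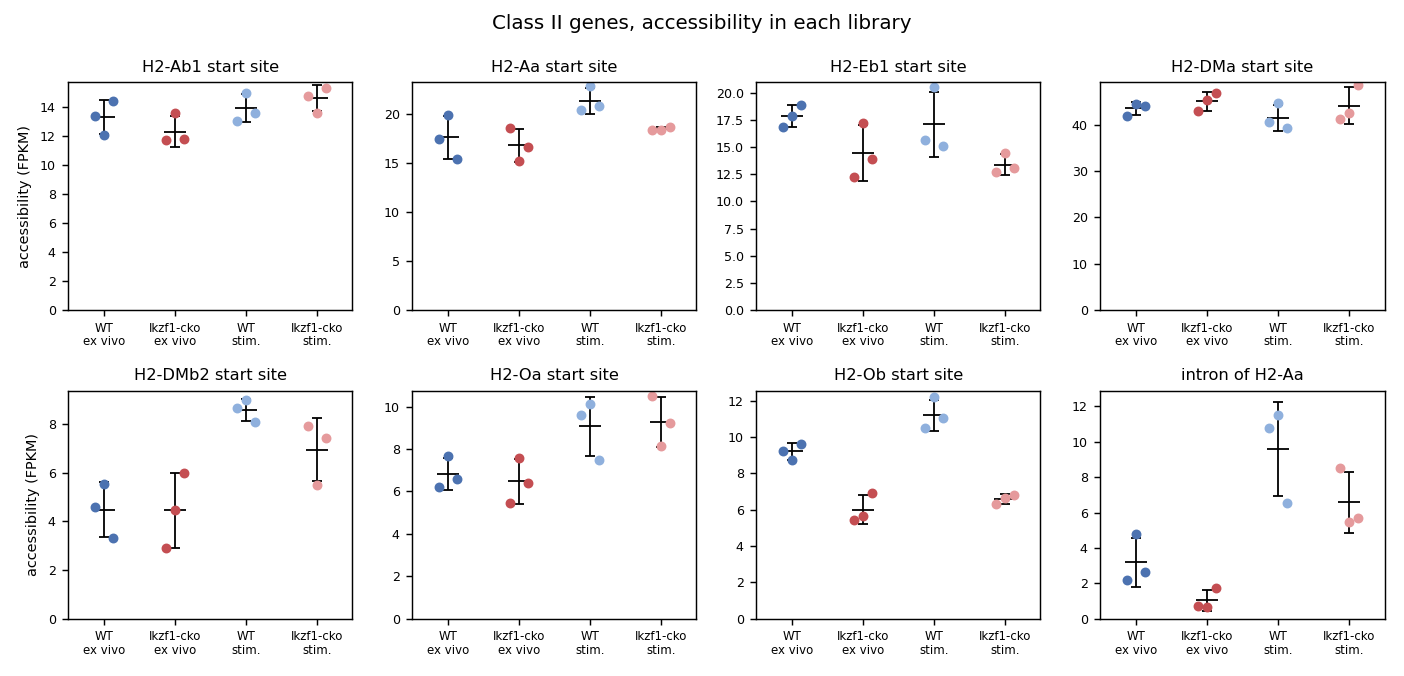
Accessibility in FPKM (y axis, from 0) of the regions over class II start sites and of the intronic region of H2-Aa in the 3 libraries of each group (points), with the group mean and SD (black). At H2-Ob the Ikzf1-cko libraries stay between 5.44 and 6.92 FPKM and the WT libraries between 8.75 and 12.2, and in the intron of H2-Aa the stimulated libraries of each genotype stand above those ex vivo.

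Most listed genes for chromatin and transcription factors rose on stimulation. Of the 11 tested start-site regions of such genes in the stretch, 9 rose in WT and 9 in Ikzf1-cko Treg, against 54% and 56% of the start-site regions of the complex and 23.9% and 22% of all. The 9 had the region shared by Tapbp and Zbtb22 among them. The 11 regions had median log2 fold changes of 0.73 and 0.60. The medians were 0.40 and 0.34 over the start-site regions of the complex, and 0.04 and 0.06 over all tested regions. As the list was chosen with earlier results of these data known, these counts and medians only describe it. The region over Zbtb12, a zinc finger gene, and an exon of C2 (OCR_50211, chr17:35030873-35031912) had 10.7, 10.7 and 8.05 FPKM in WT and 9.20, 9.36 and 11.5 in Ikzf1-cko Treg ex vivo. Stimulated WT had 25.8, 28.5 and 22.99 and stimulated Ikzf1-cko Treg 20.2, 23.1 and 20.1 FPKM. Every stimulated library was above every ex vivo library. The rise was 1.41 ± 0.14 (adjusted p = 4.4e-09) in WT and 1.08 ± 0.12 (adjusted p = 7.6e-08) in Ikzf1-cko Treg, in every alternative fit. The stimulated genotype difference of -0.29 ± 0.12 (adjusted p = 0.045) did not pass without stimulated WT replicate 1 or 2, Ikzf1-cko ex vivo replicate 2 or stimulated Ikzf1-cko replicate 1 or 3, nor with DESeq2, TMM scaling, limma or the replicate block (-0.29 to -0.18, adjusted p = 0.051 to 0.32). The region over Pbx2, a homeodomain cofactor (OCR_50193, chr17:34728973-34729900), had 8.71, 11.4 and 12.8 FPKM in WT and 8.21, 9.24 and 8.38 in Ikzf1-cko Treg ex vivo. Stimulated WT had 23.9, 20.3 and 21.3 and stimulated Ikzf1-cko Treg 20.4, 20.1 and 19.5 FPKM. Its libraries fell into the same pattern, with rises of 0.96 ± 0.14 (adjusted p = 3.2e-06) in WT and 1.21 ± 0.12 (adjusted p = 1.6e-08) in Ikzf1-cko Treg. Brd2, which encodes a reader of acetylated histones (OCR_50139, chr17:34259096-34259883), rose by 0.77 ± 0.11 (adjusted p = 2.7e-06) and 0.82 ± 0.09 (adjusted p = 1.5e-07).

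In the same list, the nuclear receptor gene Rxrb (OCR_50124) rose by 0.73 ± 0.11 (adjusted p = 2.9e-06) in WT and 0.71 ± 0.09 (adjusted p = 8.7e-07) in Ikzf1-cko Treg. The region over the H3K9 methyltransferase gene Ehmt2 and over C2 (OCR_50213) rose by 0.91 ± 0.12 (adjusted p = 1e-06) and 0.60 ± 0.10 (adjusted p = 8e-05). Daxx, a histone chaperone gene (OCR_50104), rose by 0.52 ± 0.09 (adjusted p = 3.2e-05) and 0.57 ± 0.08 (adjusted p = 2.2e-06). Ring1, a Polycomb gene (OCR_50122), rose by 0.65 ± 0.12 (adjusted p = 0.00011) and 0.38 ± 0.11 (adjusted p = 0.01), the second not passing without Ikzf1-cko ex vivo replicate 1 or stimulated Ikzf1-cko replicate 2, nor with DESeq2, TMM scaling, thinned counts or limma (0.29 to 0.37, adjusted p = 0.05 to 0.087). Atf6b (OCR_50202) and Mdc1 (OCR_50357) did not pass, with log2 fold changes of 0.06 and 0.05 in WT and 0.10 and 0.15 in Ikzf1-cko Treg.

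Housekeeping genes were similar in their counts. Of 14 tested start-site regions, 9 rose and 1 fell in WT, and 9 rose and 1 fell in Ikzf1-cko Treg, with medians of 0.40 and 0.34. The start-site regions of the complex had the same medians, and 54% and 56% of them rose while 3% and 2% fell. The region between the ribosomal protein gene Rps18 and Vps52 (OCR_50113, chr17:34092271-34093301) had 15.9, 16.3 and 17.3 FPKM in WT and 17.1, 18.4 and 21.6 in Ikzf1-cko Treg ex vivo. Stimulated WT had 25.5, 33.7 and 26.6 and stimulated Ikzf1-cko Treg 28.6, 31.5 and 26.8 FPKM. No stimulated library overlapped the ex vivo ones, and the rise was 0.79 ± 0.13 (adjusted p = 1.3e-05) in WT and 0.61 ± 0.10 (adjusted p = 6.6e-05) in Ikzf1-cko Treg. Rps28, another ribosomal protein gene (OCR_50096), rose by 0.74 and 0.58, and the casein kinase subunit gene Csnk2b (OCR_50242) by 0.46 and 0.48. The region that fell was over Abcf1, a gene of translation (OCR_50371, chr17:36106234-36107339), with 41.1, 44.8 and 46.2 FPKM in WT and 46.9, 53.1 and 51.2 in Ikzf1-cko Treg ex vivo. Stimulated WT had 31.5, 35.0 and 33.5 and stimulated Ikzf1-cko Treg 38.8, 42.4 and 41.3 FPKM. Its change was -0.41 ± 0.09 (adjusted p = 0.00053) in WT and -0.30 ± 0.08 (adjusted p = 0.004) in Ikzf1-cko Treg, the first not passing with loess normalization (-0.16, adjusted p = 0.14). The region over the valyl-tRNA synthetase gene Vars (OCR_50223, chr17:35139444-35139813) had 9.88, 11.1 and 11.004 FPKM in WT and 13.9, 17.3 and 18.9 in Ikzf1-cko Treg ex vivo. Stimulated WT had 13.0, 16.3 and 11.8 and stimulated Ikzf1-cko Treg 13.8, 13.2 and 13.7 FPKM. Ex vivo the Ikzf1-cko libraries were above the WT libraries by 0.63 ± 0.19 (adjusted p = 0.019), and after stimulation the difference was -0.02 ± 0.21 (adjusted p = 0.95). The ex vivo difference did not pass without WT ex vivo replicate 1 or 2 or Ikzf1-cko ex vivo replicate 2, nor with thinned counts (0.58 to 0.71, adjusted p = 0.054 to 0.066).

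Of the 11 start-site regions that were higher in stimulated Ikzf1-cko Treg, 7 belonged to listed genes of the class I framework and H2-M segments. Trim26 and Trim39, genes of the tripartite motif family (OCR_50418 and OCR_50409), differed by 0.32 ± 0.08 (adjusted p = 0.0014) and 0.34 ± 0.09 (adjusted p = 0.0022). Abcf1 differed by 0.30 ± 0.09 (adjusted p = 0.0057) and the phosphatase inhibitor gene Ppp1r11 (OCR_50429) by 0.29 ± 0.09 (adjusted p = 0.0085). For Mdc1, a gene of the DNA damage response, the difference was 0.20 ± 0.08 (adjusted p = 0.029), and for Tcf19 (OCR_50316) it was 0.24 ± 0.10 (adjusted p = 0.036). Znrd1, a subunit gene of RNA polymerase I next to Ppp1r11 (OCR_50430, over the antisense gene Znrd1as too), differed by 0.39 ± 0.13 (adjusted p = 0.013), which did not pass without stimulated WT replicate 3 or stimulated Ikzf1-cko replicate 2, nor with thinned counts or loess normalization (0.17 to 0.36, adjusted p = 0.052 to 0.34). The other 6 turned negative with loess normalization, with values between -0.18 and -0.02, and Mdc1 then passed as lower (adjusted p = 0.031). Ppp1r11 did not pass without stimulated WT replicate 3 or stimulated Ikzf1-cko replicate 3 (0.23, adjusted p = 0.069), Mdc1 did not without stimulated WT replicate 1 or 3 or stimulated Ikzf1-cko replicate 1 or 3 (0.17 to 0.20, adjusted p = 0.056 to 0.12), and Tcf19 did not without stimulated WT replicate 1 or 3 or stimulated Ikzf1-cko replicate 1, 2 or 3, nor with thinned counts, limma or loess normalization (-0.08 to 0.26, adjusted p = 0.057 to 0.51). Tcf19, a gene linked to entry into S phase, had 18.0, 15.9 and 17.3 FPKM in WT and 21.5, 22.2 and 24.4 in Ikzf1-cko Treg ex vivo. Stimulated WT had 29.0, 38.6 and 29.8 and stimulated Ikzf1-cko Treg 38.4, 37.6 and 39.2 FPKM. Its stimulated libraries stood above those ex vivo, and ex vivo the Ikzf1-cko libraries stood above the WT ones. The ex vivo difference was 0.41 ± 0.11 (adjusted p = 0.0051), and the rise was 0.94 ± 0.11 (adjusted p = 9.7e-08) in WT and 0.76 ± 0.09 (adjusted p = 2e-07) in Ikzf1-cko Treg, all in every alternative fit. Trim26 changed with stimulation in WT by -0.29 ± 0.08 (adjusted p = 0.005), which did not pass with loess normalization (-0.03, adjusted p = 0.77). Ppp1r11 rose in Ikzf1-cko Treg by 0.25 ± 0.08 (adjusted p = 0.027), which did not pass without Ikzf1-cko ex vivo replicate 2 or stimulated Ikzf1-cko replicate 3, nor with DESeq2, TMM scaling, thinned counts or limma (0.18 to 0.25, adjusted p = 0.062 to 0.18).

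Of the 7 listed complement and heat shock genes of the class III segment, 4 had a start site in 3 tested regions. These rose in WT and 2 of them in Ikzf1-cko Treg, against 54% and 56% of the start-site regions of the complex. The only complement gene among them was C2, whose region is the one shared with Ehmt2 and counted above. The region of the inducible heat shock gene Hspa1b (OCR_50217, chr17:35096034-35097372) had 6.90, 7.72 and 7.64 FPKM in WT and 5.11, 6.95 and 7.85 in Ikzf1-cko Treg ex vivo. Stimulated WT had 8.40, 12.8 and 11.5 and stimulated Ikzf1-cko Treg 10.04, 8.59 and 8.99 FPKM. Stimulated libraries were above ex vivo libraries in each genotype, by 0.54 ± 0.17 (adjusted p = 0.011) in WT and 0.48 ± 0.15 (adjusted p = 0.017) in Ikzf1-cko Treg. The rise in WT did not pass without stimulated WT replicate 2 (0.39, adjusted p = 0.091), and that in Ikzf1-cko Treg did not without Ikzf1-cko ex vivo replicate 1 or stimulated Ikzf1-cko replicate 1, nor with DESeq2, thinned counts or limma (0.32 to 0.49, adjusted p = 0.081 to 0.16). The region shared by Hspa1a and Hspa1l (OCR_50218) rose in WT by 0.49 ± 0.20 (adjusted p = 0.042), a value that did not pass without WT ex vivo replicate 1, 2 or 3, stimulated WT replicate 2 or stimulated Ikzf1-cko replicate 2, nor with DESeq2 or limma (0.24 to 0.56, adjusted p = 0.05 to 0.38), and in Ikzf1-cko Treg its change was 0.17 ± 0.17 (adjusted p = 0.48). No region stood at the start sites of the complement genes C4a, C4b and Cfb.

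Among 7 tested start-site regions of immune and signaling genes of the class III and neighboring segments, 3 rose and 1 fell in WT and 2 rose in Ikzf1-cko Treg. Of the start-site regions of the complex, 54% rose and 3% fell in WT and 56% rose in Ikzf1-cko Treg. The early response gene Ier3 (OCR_50352, chr17:35958316-35958889) had 8.71, 5.54 and 6.28 FPKM in WT and 7.71, 7.72 and 8.79 in Ikzf1-cko Treg ex vivo. Stimulated WT had 11.8, 18.1 and 10.9 and stimulated Ikzf1-cko Treg 10.96, 7.98 and 10.18 FPKM. Stimulated WT libraries stood above WT libraries ex vivo, and the Ikzf1-cko groups overlapped. The rise in WT was 1.03 ± 0.23 (adjusted p = 0.00059), the change in Ikzf1-cko Treg was 0.27 ± 0.19 (adjusted p = 0.31), and the interaction was -0.76 ± 0.30 (adjusted p = 0.11). After stimulation the genotype difference was -0.49 ± 0.20 (adjusted p = 0.044), which did not pass without stimulated WT replicate 2, Ikzf1-cko ex vivo replicate 2 or stimulated Ikzf1-cko replicate 2 or 3, nor with DESeq2, TMM scaling, thinned counts, limma, loess normalization or the replicate block (-0.53 to -0.23, adjusted p = 0.05 to 0.42). The collagen receptor gene Ddr1 (OCR_50332) rose by 0.55 in WT and 0.56 in Ikzf1-cko Treg. The GABA receptor gene Gabbr1 (OCR_50441) rose by 0.44 in Ikzf1-cko Treg, and its log2 fold change in WT was 0.14.

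The region with the highest mean level of the complex lay away from start sites, in the H2-T segment. OCR_50404 (chr17:36368126-36368637), between genes and 24 kb from Rpp21, the nearest protein-coding gene, had a GC content of 66.6%. It had 104, 85.1 and 70.0 FPKM in WT and 59.1, 63.3 and 49.1 in Ikzf1-cko Treg ex vivo. Stimulated WT had 206, 190.0 and 167 and stimulated Ikzf1-cko Treg 134, 114 and 110.0 FPKM. Stimulated libraries were all above ex vivo libraries, and in each state every Ikzf1-cko library was below every WT library. The rise was 1.15 ± 0.11 (adjusted p = 1.9e-09) in WT and 1.06 ± 0.10 (adjusted p = 1.1e-08) in Ikzf1-cko Treg, and the genotype difference was -0.57 ± 0.11 (adjusted p = 0.00053) ex vivo and -0.66 ± 0.10 (adjusted p = 7e-06) after stimulation. All 4 passed in every alternative fit. The next regions by mean level were over start sites and had no large change. They were Rnf5 and Agpat1 (OCR_50195) with 88.2 to 118 FPKM in the 12 libraries, Mdc1 with 63.9 to 83.5, Rab11b (OCR_50091) with 60.9 to 79.8, and Ppp1r10 (OCR_50368) with 60.3 to 88.9.

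OCR_50267 (chr17:35367983-35368498) had the highest log2 fold change between the genotypes ex vivo. It lies in an intron of Nfkbil1 next to the left-out neighborhood of Tnf, Lta and Ltb, and had 15.3, 13.4 and 11.05 FPKM in WT and 26.8, 28.6 and 29.7 in Ikzf1-cko Treg ex vivo. Stimulated WT had 10.26, 11.7 and 11.3 and stimulated Ikzf1-cko Treg 19.5, 11.6 and 11.7 FPKM. The Ikzf1-cko ex vivo libraries stood above those of the other 3 groups, which overlapped. The ex vivo difference was 1.12 ± 0.17 (adjusted p = 1.2e-05) and the change on stimulation in Ikzf1-cko Treg was -1.0 ± 0.15 (adjusted p = 1.3e-05), both in every alternative fit. In WT the change on stimulation was -0.23 ± 0.22 (adjusted p = 0.41). After stimulation the genotype difference was 0.35 ± 0.21 (adjusted p = 0.16), and the interaction was -0.77 ± 0.27 (adjusted p = 0.075). The region over the start sites of Nfkbil1 and Atp6v1g2 (OCR_50270) rose in WT by 0.51 ± 0.16 (adjusted p = 0.008), which did not pass without stimulated WT replicate 2 (0.31, adjusted p = 0.12).

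The 5 regions with large falls in Ikzf1-cko Treg ex vivo, that in the intron of H2-Aa included, were all away from start sites, as were 96.7% of such regions over all. None of the 5 reached 3.6 CPM in all 12 libraries, and OCR_50190 and OCR_50340 reached it only in WT libraries. OCR_50190 (chr17:34708726-34709172), over an exon of the receptor gene Notch4, had 8.18, 8.60 and 4.42 FPKM in WT and 1.46, 1.95 and 3.06 in Ikzf1-cko Treg ex vivo. Stimulated WT had 9.99, 9.81 and 8.84 and stimulated Ikzf1-cko Treg 7.52, 4.10 and 3.51 FPKM. Ikzf1-cko libraries were below WT libraries in both states. The genotype difference was -1.70 ± 0.41 (adjusted p = 0.003) ex vivo, in every alternative fit that tested it, and -0.94 ± 0.38 (adjusted p = 0.037) after stimulation. In Ikzf1-cko Treg it rose by 1.23 ± 0.40 (adjusted p = 0.026). The stimulated difference did not pass without stimulated WT replicate 1, 2 or 3 or stimulated Ikzf1-cko replicate 2 or 3, nor with DESeq2 or loess normalization (-0.98 to 0.36, adjusted p = 0.064 to 0.33), the positive value being that with loess normalization, and the rise did not pass without Ikzf1-cko ex vivo replicate 1 or 2 or stimulated Ikzf1-cko replicate 1, nor with the compared groups alone, thinned counts or loess normalization (0.72 to 1.23, adjusted p = 0.067 to 0.25). OCR_50111 (chr17:34084652-34085067), in an intron of Wdr46, had 14.3, 18.8 and 18.2 FPKM in WT and 8.45, 9.96 and 6.58 in Ikzf1-cko Treg ex vivo. Stimulated WT had 15.1, 18.4 and 8.998 and stimulated Ikzf1-cko Treg 9.64, 9.54 and 9.22 FPKM. The genotypes did not overlap ex vivo, and did after stimulation. The difference was -1.04 ± 0.21 (adjusted p = 0.00045) ex vivo, in every alternative fit that tested it. After stimulation it was -0.60 ± 0.23 (adjusted p = 0.029), which did not pass without stimulated WT replicate 1 or 2 or stimulated Ikzf1-cko replicate 2 or 3, nor with DESeq2, TMM scaling, thinned counts, limma or loess normalization (-0.61 to -0.38, adjusted p = 0.053 to 0.26).

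A cluster of regions between genes lay 22.3 kb to 29.9 kb from the start of Ddr1. OCR_50339 (chr17:35868634-35869146) had 10.9, 7.49 and 7.94 FPKM in WT and 4.06, 2.83 and 4.67 in Ikzf1-cko Treg ex vivo. Stimulated WT had 9.99, 7.12 and 10.13 and stimulated Ikzf1-cko Treg 7.19, 4.56 and 4.42 FPKM. Ikzf1-cko libraries were below WT libraries ex vivo, by -1.16 ± 0.28 (adjusted p = 0.0034), which passed in every alternative fit that tested the region. After stimulation the difference was -0.76 ± 0.29 (adjusted p = 0.027), which did not pass without stimulated WT replicate 1 or 3 or stimulated Ikzf1-cko replicate 2 or 3, nor with DESeq2, thinned counts or loess normalization (-0.72 to -0.19, adjusted p = 0.075 to 0.62). OCR_50340 (chr17:35871460-35871753) had 11.1, 14.0 and 11.9 FPKM in WT and 5.09, 5.93 and 5.23 in Ikzf1-cko Treg ex vivo. Stimulated WT had 17.4, 17.4 and 7.07 and stimulated Ikzf1-cko Treg 9.22, 10.04 and 5.64 FPKM. Its ex vivo difference, again without overlap, was -1.19 ± 0.34 (adjusted p = 0.012), which did not pass without WT ex vivo replicate 2, nor with loess normalization (-1.08 to -0.66, adjusted p = 0.071 to 0.15). OCR_50337 (chr17:35863909-35864480) had 6.05, 6.25 and 3.25 FPKM in WT and 2.28, 3.81 and 2.24 in Ikzf1-cko Treg ex vivo. Stimulated WT had 11.3, 11.2 and 10.54 and stimulated Ikzf1-cko Treg 7.77, 7.12 and 6.56 FPKM. Stimulation raised it by 1.12 ± 0.28 (adjusted p = 0.0015) in WT and 1.35 ± 0.27 (adjusted p = 0.00035) in Ikzf1-cko Treg, in every alternative fit that tested it. Its genotype difference was -0.86 ± 0.30 (adjusted p = 0.038) ex vivo, which did not pass without WT ex vivo replicate 1 or 2 or Ikzf1-cko ex vivo replicate 1 or 3, nor with DESeq2, TMM scaling, the compared groups alone, limma or loess normalization (-0.87 to -0.58, adjusted p = 0.052 to 0.22), and -0.63 ± 0.25 (adjusted p = 0.035) after stimulation, which did not pass without stimulated WT replicate 1, 2 or 3 or stimulated Ikzf1-cko replicate 2 or 3, nor with DESeq2, TMM scaling, limma or loess normalization (-0.65 to -0.19, adjusted p = 0.055 to 0.59).

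Mean levels at the CD8 T cell markers Cd8a and Cd8b1 were also lower in Ikzf1-cko Treg. At Cd8b1, which was tested and passed as lower in both states, the means were 13.4 FPKM in WT and 8.92 in Ikzf1-cko Treg ex vivo and 11.8 and 9.52 after stimulation. At Cd8a, which was not tested, they were 8.45, 3.58, 9.47 and 5.81 FPKM in the same order. The NK cell marker Klrb1c, not tested either, had 5.02, 5.37, 5.95 and 4.97 FPKM, and Ncr1 had no region. The 3 regions had summed levels of 25.3 to 29.2 FPKM in WT and 16.1 to 21.0 in Ikzf1-cko Treg ex vivo, and 25.5 to 28.8 and 18.3 to 22 after stimulation. Their part in the differences of the complex was not tested.

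**Figure D5:**
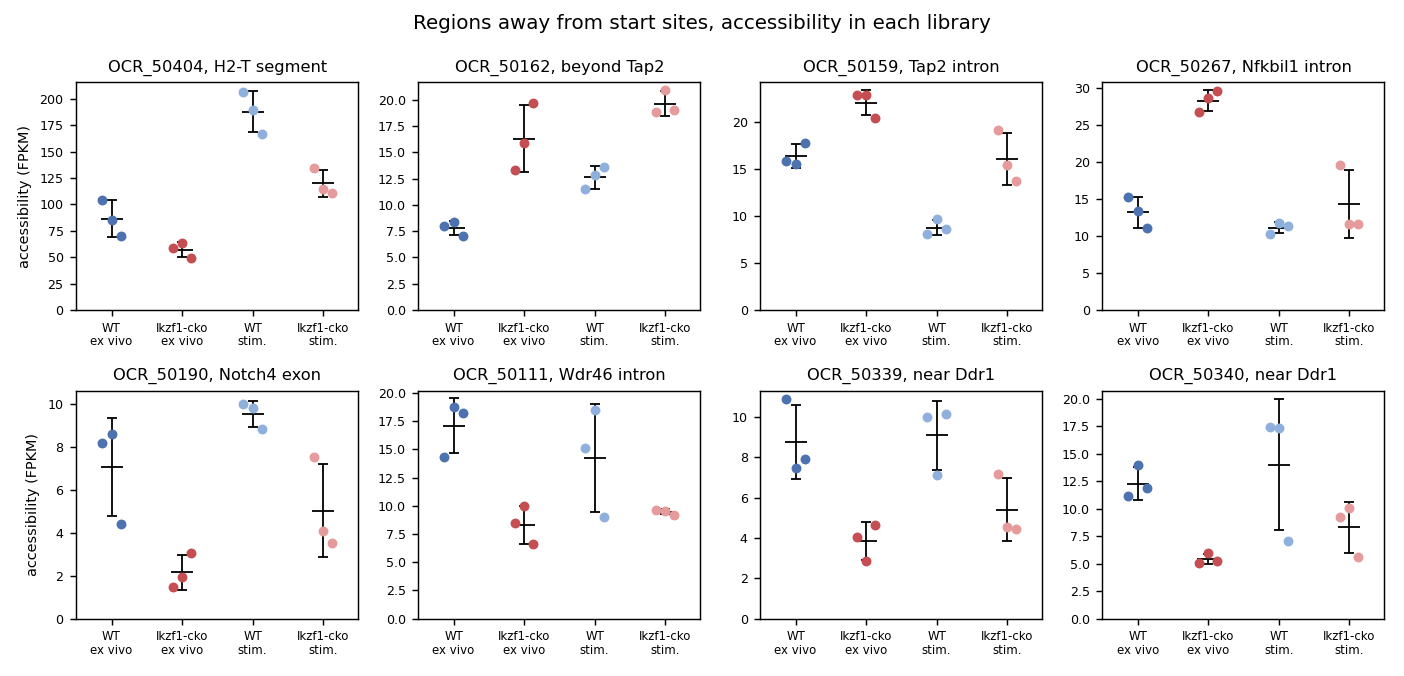
Accessibility in FPKM (y axis, from 0) of 8 regions away from start sites in the 3 libraries of each group (points), with the group mean and SD (black). OCR_50404 reaches 167 to 206 FPKM in stimulated WT Treg, OCR_50162 and OCR_50267 are higher in Ikzf1-cko Treg ex vivo, and OCR_50190, OCR_50339 and OCR_50111 are lower there.

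Other large rises lay in class III and in the blocks between the class I genes. OCR_50349 (chr17:35905409-35905960), between genes and with the lowest mean of the 347 regions, had 3.49, 3.12 and 1.69 FPKM in WT and 1.42, 1.45 and 1.08 in Ikzf1-cko Treg ex vivo. Stimulated WT had 10.48, 7.61 and 4.90 and stimulated Ikzf1-cko Treg 7.27, 5.35 and 2.21 FPKM. The rise was 1.52 ± 0.45 (adjusted p = 0.0061) in WT and 1.86 ± 0.44 (adjusted p = 0.0026) in Ikzf1-cko Treg, and in WT it did not pass without stimulated WT replicate 1, nor with loess normalization (0.08 to 1.22, adjusted p = 0.069 to 0.89). OCR_50225 (chr17:35164411-35164942), 19 bases from the start of Ng23, had 3.62, 3.74 and 2.84 FPKM in WT and 3.92, 4.64 and 3.37 in Ikzf1-cko Treg ex vivo. Stimulated WT had 9.95, 6.87 and 12.5 and stimulated Ikzf1-cko Treg 5.91, 6.31 and 7.05 FPKM. Stimulated libraries were above ex vivo libraries in each genotype, by 1.52 ± 0.32 (adjusted p = 0.00031) in WT and 0.69 ± 0.27 (adjusted p = 0.066) in Ikzf1-cko Treg. The 2 further regions with large rises in WT, OCR_50280 between genes near H2-D1 and OCR_50355 over an exon of the tubulin gene Tubb5, were named after their values were seen. They rose there by 1.03 ± 0.26 (adjusted p = 0.0016) and 1.22 ± 0.25 (adjusted p = 0.00023).

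In all, 12 regions differed between the genotypes both ex vivo and after stimulation, which are comparisons without shared libraries. They made up 40% of the 30 regions that differed ex vivo and 30.8% of the 39 that differed after stimulation. Over all tested regions 14.1% differed in both states, against 4.69% of the regions of the complex, and they made up 65.5% of those that differed ex vivo and 27.6% of those that differed after stimulation. Each of the 12 had the same direction in both, as did 97.3% over all, 4 higher (OCR_50115, OCR_50159, OCR_50162 and OCR_50316) and 8 lower in Ikzf1-cko Treg. The 8 were OCR_50111, OCR_50164, OCR_50190, OCR_50337, OCR_50339 and OCR_50404 above, and OCR_50299 near H2-Q6 and OCR_50406 near Rpp21, named after their values were seen. OCR_50299 (chr17:35557063-35557820) differed by -0.75 ± 0.23 (adjusted p = 0.019) ex vivo and -0.62 ± 0.23 (adjusted p = 0.022) after stimulation. The first did not pass without WT ex vivo replicate 1 or 2, nor with DESeq2, thinned counts or limma (-0.68 to -0.47, adjusted p = 0.076 to 0.24), and the second did not without stimulated WT replicate 2 or stimulated Ikzf1-cko replicate 2 or 3, nor with DESeq2, limma or loess normalization (-0.60 to -0.41, adjusted p = 0.059 to 0.19). OCR_50406 (chr17:36389237-36389759) differed by -0.80 ± 0.18 (adjusted p = 0.0018) ex vivo and -0.53 ± 0.21 (adjusted p = 0.037) after stimulation, the second not passing without stimulated WT replicate 1 or 3 or stimulated Ikzf1-cko replicate 2 or 3, nor with DESeq2, TMM scaling, the compared groups alone or loess normalization (-0.53 to -0.36, adjusted p = 0.061 to 0.21).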

How the data were processed

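The deposited counts are de-duplicated reads per region and library, which the authors obtained by alignment with Bowtie2, peak calling per replicate with MACS2 and merging of peaks found in at least 2 replicates into 1 reference set. The deposited FPKM values are the same counts, scaled by the authors to the length of each region and to the sum of counts over all regions in the library. Regions are in mm9 per the labels, although the study's methods print a human build, and versions of the aligner and peak caller are not given in the sources used here. A further table of the authors' own comparisons (fold changes, F statistics, p-values and FDR) was not used.

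Counts were fitted with edgeR 4.0.16 (quasi-likelihood, library totals as offsets, all 12 libraries) in R 4.3.3 over 69957 regions, with a minimum of 3.6 CPM in at least 3 libraries. Alternatives used TMM scaling, loess normalization, DESeq2 1.42.0, limma 3.58.1 on log2(FPKM + 1) and log2(FPKM + 0.1), other filters, thinned counts, a replicate block, the compared groups alone and each library left out. On simulated counts for the genotype comparison ex vivo, 198 of 200 regions changed by 2 on the log2 scale were recovered, with 2 false calls. The simulation used 1 fixed spread for all regions. Its changes were larger than the ex vivo differences of the complex (-1.7 to 1.12), so it gives no recovery rate for those. Sequences and annotation came from mm9 (GENCODE vM1), and copies were searched with blastn 2.17.0.

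The regions, gene lists and markers were chosen with earlier results of these data known, and 1 listed marker is not reported here. Named by rule were the start-site regions of the listed genes and the 5 strongest non-overlapping large changes per direction. Also named were the 3 smallest p-values per comparison, regions with large changes in more than 1 comparison and the 5 regions with the highest mean level. Not all of these are described above. Those left out include OCR_50302 near H2-Q6, among the 3 smallest interaction p-values, and OCR_50110 over Wdr46. OCR_50110 was lower in stimulated Ikzf1-cko Treg (-0.34, adjusted p = 0.022 by edgeR), which did not pass in 8 of 22 alternative fits.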

Additional observations from a re-analysis of the deposited data

Results flagged for a closer look

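The effect of stimulation on the region over H2-Q6 (OCR_50301) differed between the genotypes by the interaction term of the fit, with a log2 fold change of -0.54 ± 0.17 and an adjusted p of 0.046 by edgeR. The rise was 0.56 in WT and the change was 0.02 in Ikzf1-cko Treg, and the difference did not pass in 16 of the 21 alternative fits.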

How the results depend on the processing

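Of the 127 tested differences of the named regions that passed, 71 passed with the same direction under every alternative run that tested the region. Another 7 reversed, each in stimulated Ikzf1-cko against WT with loess normalization: OCR_50190 (0.36), OCR_50316 (-0.08), OCR_50357 (-0.18), OCR_50371 (-0.06), OCR_50409 (-0.02), OCR_50418 (-0.04) and OCR_50429 (-0.04). The cause was not tested. The number of regions with a large difference between the genotypes ex vivo was 7, and became 2 with the filter in all 12 libraries, 11 without a filter and 30 by FDR alone. After stimulation it was 0, and became 1 with thinned counts, 2 with loess normalization, 6 without a filter and 39 by FDR alone. For stimulation in WT 10 became 2, 29 and 103, and for stimulation in Ikzf1-cko Treg 9 became 4, 25 and 99, with the filter in all libraries, without a filter and by FDR alone. For the interaction 0 became 2 with loess normalization and 1 by FDR alone. With 1 library left out, the counts ranged from 4 to 8 ex vivo, from 0 to 3 after stimulation, from 10 to 12 for stimulation in WT, from 6 to 10 for stimulation in Ikzf1-cko Treg and from 0 to 1 for the interaction, where 1 came without WT ex vivo replicate 1 or stimulated Ikzf1-cko replicate 1.

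With the replicate number as a block the counts were 7, 0, 11, 9 and 0 in the same order, and 3 named differences no longer passed (OCR_50211 and OCR_50352 after stimulation, and the interaction at OCR_50301). Deviations of the 18 pairs of libraries with the same number correlated between -0.355 and 0.284, and 3 of 12 libraries correlated best with their own number, so the numbers were not taken to pair the libraries.

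WT libraries held fewer reads than Ikzf1-cko libraries, so depth and genotype cannot be told apart beyond what thinning to 4808916 reads per library shows. With 91 of the 347 regions under the filter, differences there were not tested.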
